A study of Mus musculus with 9 samples.

Results

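HOX genes encode homeodomain transcription factors that give cells of the body axis, limbs and genital tract their position. Their order along a chromosome follows the order in which they are used along the body axis, so that low-numbered genes act towards the head and high-numbered genes towards the tail. The neural retina forms from the forebrain, in front of the region that HOX genes pattern, whereas fibroblasts and other mesenchymal cells of the trunk and limbs commonly keep a HOX code in culture. The genes were chosen by symbol as all rows named Hoxa, Hoxb, Hoxc or Hoxd with a number, without use of their values. The rule gave 39 genes of the 22322 in the table, and 22 of them passed the low-count filter and were tested.

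RNA was sequenced from mouse cells of the WT genotype that are labelled as retinal ganglion cells (RGCs), the neurons that send the axons of the optic nerve. The 9 libraries fall into 3 groups of 3, labelled normal RGCs, aging RGCs, and aging RGCs with USCs conditioned medium, the last called the medium group. Normal RGCs were kept in complete medium, aging RGCs were treated with D-galactose, and the medium group was treated with D-galactose and then given conditioned medium of human urine-derived stem cells (USCs) from which the cells had been removed. Whether the USCs medium without D-galactose changes HOX genes was not analysed here. The RGCs were bought from a company and cultured in medium with serum, and no source used here gives their strain, age or passage. The methods name replicated wells, so p-values measure the spread between these 3 libraries of a group, which may be technical.

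Library totals were 18189616 to 22342288 expected counts, the estimated number of reads per gene. Of 15 RGC markers, 4 passed the filter. Pou4f2, Pou4f3, Atoh7 and Stmn2 were at 0 in all 9 libraries, and Thy1, Nefh, Gap43 and Elavl4 did not exceed 0.09 FPKM (fragments scaled by transcript length and library size) in any library. Rbpms at 21.89 to 33.11 FPKM, Nefl at 4.55 to 20.53 and Isl1 at 4.62 to 9.36 were present. Several defining markers of the labelled cell type were therefore absent, and the cells are called RGCs here only as their label does. Summed FPKM was 963 to 1128 over 10 mesenchymal markers, of which Vim alone gave 778 to 940, while Col1a2 and Acta2 did not exceed 0.38. The sum was 636 to 711 over 10 epithelial markers, carried by Krt8 (206 to 361), Krt18 (175 to 244) and Krt19 (148 to 244), while Cdh1 did not exceed 0.05 and Krt5 and Esrp1 were at 0. Over the 15 RGC markers it was 32.9 to 60.9. Replicate 3 of the medium group stood apart from the other two in macrophage markers, with 45, 20 and 241 counts of Lyz2, 2, 2 and 32 of Adgre1 and 0, 0 and 15 of C1qb in medium replicates 1, 2 and 3, where aging RGCs had 23 to 118, 0 to 2 and 0. In bulk RNA, fewer cells of a type and less RNA per cell cannot be told apart.

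Transcripts came from the Hoxa, Hoxc and Hoxd clusters, and almost none from the Hoxb cluster. All 11 Hoxa genes were tested, against 8 of 9 Hoxc genes, 3 of 9 Hoxd genes and 0 of 10 Hoxb genes. Taking a gene as expressed where its FPKM was at least 1 in every library of a group, 17 of the 39 genes were expressed in at least 1 group and 12 in all 3 groups. Of the 17, 9 were Hoxa, 5 Hoxc and 3 Hoxd genes. FPKM is scaled by transcript length and so serves to compare levels between genes, while CPM (a gene's counts over the TMM-scaled library total, times a fixed constant) serves to compare one gene between libraries.

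The Hoxa cluster lies on the minus strand of chromosome 6 and gave 59.9%, 58.7% and 63.1% of the summed HOX FPKM in the normal, aging and medium groups. The Hoxc cluster, on the plus strand at chr15:102921103-103036852 (GRCm38), gave 30.3%, 30.6% and 26.2% in the same order. The Hoxd cluster, on the plus strand at chr2:74668310-74765142, gave 9.72%, 10.6% and 10.7%. Cluster shares therefore kept the same order in the 3 groups. The Hoxb cluster, on the plus strand at chr11:96194316-96368256, held 14 counts over its 10 genes and all 9 libraries, and no Hoxb gene had more than 2 counts in a library.

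**Figure D1:**
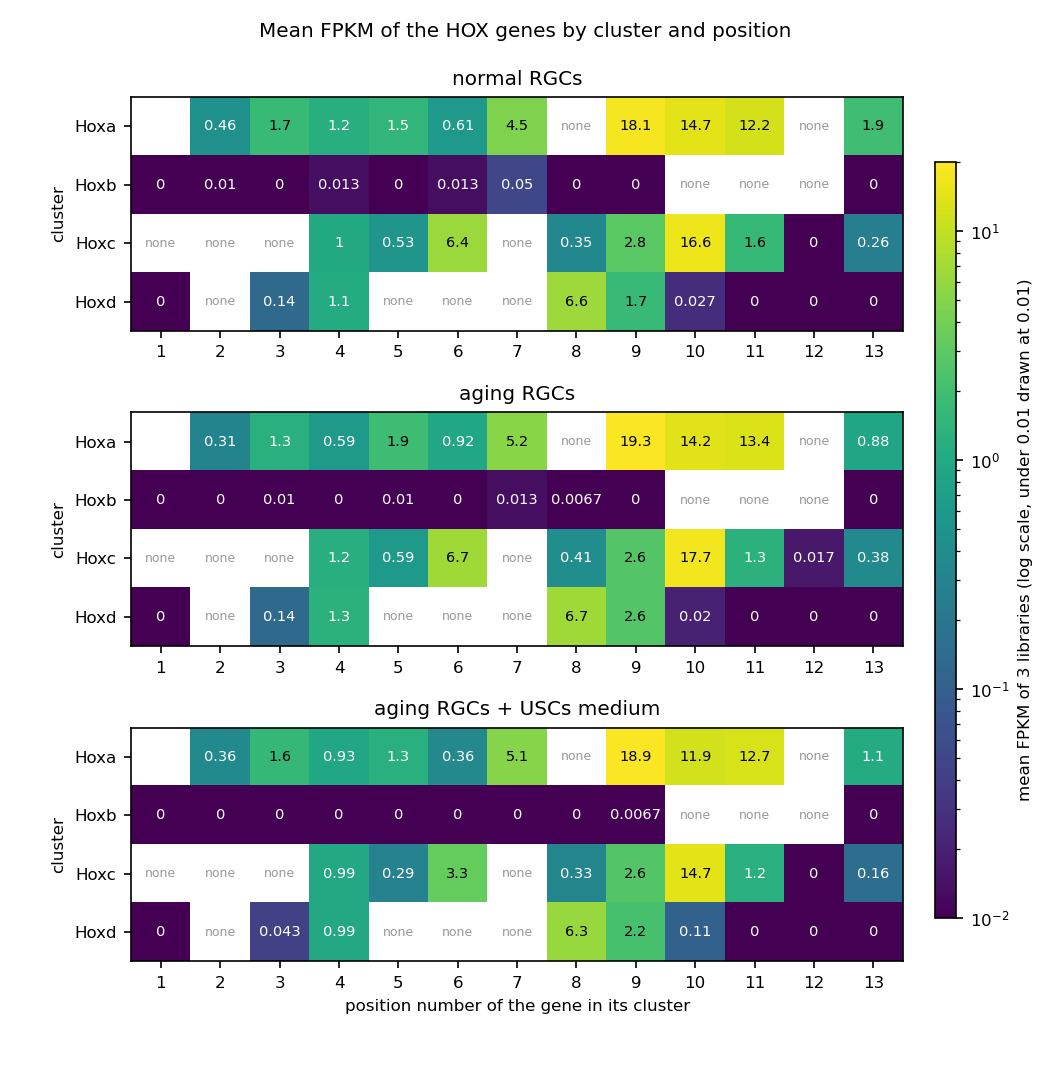
Mean FPKM of each HOX gene in the 3 libraries of each group, with clusters in rows, position numbers in columns and colour on a log scale. Positions marked none hold no gene of that cluster, and 1 blank position is not drawn. The Hoxb row was near 0 in all 3 groups, and the highest levels were at positions 9 to 11 of the Hoxa row and position 10 of the Hoxc row.

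Posterior genes gave most of the HOX signal. The 16 genes at positions 9 to 13 made up 71.6%, 71.5% and 73.1% of the summed HOX FPKM in the normal, aging and medium groups. The 15 genes at positions 4 to 8 made up 24.4%, 25.2% and 22%, and the 8 genes at positions 1 to 3 made up 3.98%, 3.33% and 4.87%. Hoxa9, known from blood cell formation and the trunk, had the highest level, with a mean of 18.79 FPKM over the 9 libraries and a range of 15.86 to 20.34. Hoxc10, which marks lumbar levels, had a mean of 16.35 FPKM (14.21 to 18.84), Hoxa10, a gene of the uterus and the lumbar spine, 13.62 (10.98 to 15.14), and Hoxa11, a gene of the uterus and the forearm, 12.77 (10.72 to 14.4). The ranges of these neighbours in rank overlapped, but the lowest library of each lay above the highest library of the fifth gene, Hoxd8, which had a mean of 6.51 FPKM and a maximum of 7.92. Hoxc6 followed at 5.47 FPKM and Hoxa7 at 4.95, and the ranges of these 3 genes overlapped as well.

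The remaining tested genes were low, between 0.264 FPKM for Hoxc13 and 2.69 for Hoxc9 on average. Levels within a cluster did not simply climb with position, since Hoxa13 had a mean of 1.30 FPKM beside 12.77 for Hoxa11, and Hoxd9 had 2.15 FPKM beside 6.51 for Hoxd8. Hoxc12 had 1 count in all, between Hoxc11 with 513 and Hoxc13 with 117. In the Hoxd cluster transcripts came mainly from Hoxd4, Hoxd8 and Hoxd9. Hoxd10, the next gene, had 0, 2 and 1 counts in normal RGCs, 0, 2 and 0 in aging RGCs, and 3, 3 and 6 in the medium group, and Hoxd11, Hoxd12 and Hoxd13 had none.

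In total 6 genes had 0 counts in all 9 libraries, namely Hoxb1, Hoxb13, Hoxd1, Hoxd11, Hoxd12 and Hoxd13. A count of 0 over the 180809072 counts of all libraries allows a level of up to 0.0166 CPM per gene, and 0.165 CPM in the smallest library alone, for counting error only. Hoxb2, Hoxb3, Hoxb4, Hoxb5, Hoxb6, Hoxb7, Hoxb8 and Hoxb9 had 1 to 5 counts over all libraries. Hoxd3 had 7.42, 7.16 and 10.58 counts in normal RGCs, 6.96, 10.41 and 6.43 in aging RGCs, and 6.49, 1.42 and 0 in the medium group. These counts were fractional, and Hoxd3 shares 62.3% of its exon bases with Hoxd4 and the transcript Gm28230, and Hoxd4 shares 52.3% of its own with Hoxd3 and Gm28230, so that the division of reads between both genes is uncertain.

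The sequences just upstream of 4 HOX genes are shown. Hoxd9 and Hoxd10 lie on the 2 sides of a step from an expressed gene to one near 0, Hoxa13 fell in aging RGCs, and Hoxb8 stands for the Hoxb cluster, which was near 0. Each is the 250 bases before the RefSeq transcript start on GRCm38.p6, printed 5′ to 3′ on the strand of the gene, with CG pairs, the sites of DNA methylation, in capitals. Hoxa13 lies at chr6:52260881-52261130 on the minus strand, Hoxd9 at chr2:74697513-74697762, Hoxd10 at chr2:74691641-74691890 and Hoxb8 at chr11:96281655-96281904, the last 3 on the plus strand.
Hoxa13 upstream: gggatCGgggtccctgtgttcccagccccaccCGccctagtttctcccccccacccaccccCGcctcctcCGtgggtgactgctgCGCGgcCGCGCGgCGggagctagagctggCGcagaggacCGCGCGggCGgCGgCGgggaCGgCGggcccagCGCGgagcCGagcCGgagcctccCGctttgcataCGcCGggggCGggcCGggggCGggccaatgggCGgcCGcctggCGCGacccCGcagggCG
Hoxd9 upstream: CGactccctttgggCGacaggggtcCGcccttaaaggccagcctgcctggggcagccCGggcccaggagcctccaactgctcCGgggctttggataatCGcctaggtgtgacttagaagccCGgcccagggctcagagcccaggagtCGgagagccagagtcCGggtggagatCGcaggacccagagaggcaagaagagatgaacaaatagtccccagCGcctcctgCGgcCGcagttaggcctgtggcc
Hoxd10 upstream: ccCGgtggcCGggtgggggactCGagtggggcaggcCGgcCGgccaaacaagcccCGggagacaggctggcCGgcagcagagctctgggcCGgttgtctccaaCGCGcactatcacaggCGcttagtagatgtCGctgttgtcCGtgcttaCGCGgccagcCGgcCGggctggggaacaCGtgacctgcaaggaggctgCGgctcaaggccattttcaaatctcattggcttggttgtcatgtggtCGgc
Hoxb8 upstream: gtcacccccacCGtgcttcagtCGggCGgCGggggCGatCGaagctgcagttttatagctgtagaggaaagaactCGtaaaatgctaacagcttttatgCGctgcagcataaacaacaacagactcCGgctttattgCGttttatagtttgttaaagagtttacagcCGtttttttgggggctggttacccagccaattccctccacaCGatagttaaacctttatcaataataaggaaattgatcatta

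These windows held 35 CG pairs for Hoxa13, 13 for Hoxd9, 20 for Hoxd10 and 12 for Hoxb8. The RefSeq table held 24 promoters of 22 HOX genes. Their windows had a median of 12.5 CG pairs and 58.6% G and C, beside 6 pairs and 52.4% over all 32851 promoters. Among HOX promoters the median was 10.5 CG pairs for the 14 of tested genes and 13 for the 10 of genes that were not tested. These promoters cover 13 of the 22 genes tested and 9 of the 17 not tested. The part of CG pairs in expression was not tested. The letters TATAAA, searched on both strands, were in 4 of 24 HOX windows (16.7%) and in 12.4% of all windows, and Hoxb8 was one of the 4. The letters TGATTNAT, a form of the site bound by HOX proteins with PBX partners, were in 2 of 24 HOX windows (8.33%) and in 2.82% of all windows. A match describes letters only, and DNA methylation was not measured.

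Aging RGCs were compared with normal RGCs to ask whether D-galactose treatment changed the HOX code. At an adjusted p under 0.05 (quasi-likelihood test of edgeR, adjusted by Benjamini-Hochberg over 12145 genes), Hoxd9 rose and Hoxa4 and Hoxa13 fell. These 3 calls are 13.6% of the 22 HOX genes tested, where 46.5% of all genes tested were called. By direction, 23.6% of all genes were called higher and 23% lower. HOX genes were also low, with a median of 3.52 CPM against 30.0 over all genes tested, and the part of the level in the share called was not tested. Of the 22 HOX genes tested 2 were called with an absolute log2 fold change of 1 or more, a rule that 2.65% of all genes tested met. The median log2 fold change was 0.11 over the 22 HOX genes and 0.00 over all genes tested.

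Hoxa13, the last gene of its cluster and a gene of digits and the genital tract, had 4.24, 4.65 and 4.74 CPM in normal RGCs and 1.19, 3.09 and 2.03 CPM in aging RGCs. All 3 aging libraries lay below all 3 normal libraries, and aging RGCs replicate 1 was the lowest. The means were 4.54 ± 0.263 and 2.10 ± 0.953 CPM (SD, n = 3), a 2.15-fold lower level with a log2 fold change of -1.10 (SE 0.235, edgeR adjusted p = 0.000306).

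Hoxa4, which patterns the neck and upper trunk, had 1.65, 2.18 and 1.83 CPM in normal RGCs and 0.703, 0.876 and 1.22 CPM in aging RGCs. The groups did not overlap, at 120 counts in all normal libraries together and 54 in the aging ones. Hoxa4 was 2.004-fold lower (SE 0.301 on the log2 scale, edgeR adjusted p = 0.0073). Exons of Hoxa4 overlap those of an antisense transcript over 16% of their length, and whether counting used the strand is not stated in the labels or methods.

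Hoxd9, a gene of the lower trunk and the limbs, had 3.21, 4.26 and 2.91 CPM in normal RGCs and 5.68, 4.33 and 6.43 CPM in aging RGCs. The highest normal library and the lowest aging library nearly touched. It differed by 0.66 on the log2 scale (SE 0.177, edgeR adjusted p = 0.00289). The other two Hoxd genes tested did not follow it past the test, since Hoxd4 had a log2 fold change of 0.20 (edgeR adjusted p = 0.523) and Hoxd8 of -0.05 (edgeR adjusted p = 0.672). Hoxa13, Hoxa4 and Hoxd9 were called in each of 20 alternative settings of the test, scaling, filter and libraries, which include the fits without 1 library.

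The highest HOX genes did not pass the test. Hoxa9 had 31.7, 28.5 and 33.5 CPM in normal RGCs and 32.1, 32.3 and 31.9 CPM in aging RGCs, within the spread of the normal libraries. Its log2 fold change was 0.04 with a 95% interval of -0.11 to 0.18. Hoxa3, a gene of the throat and hindbrain, came nearest to the threshold from above, with 4.11, 4.80 and 4.05 CPM in normal RGCs against 2.92, 2.78 and 3.90 CPM in aging RGCs. Its groups did not overlap, but the log2 fold change of -0.43 had an edgeR adjusted p of 0.0588, which became 0.0241 without aging RGCs replicate 3. In all, 6 of 22 HOX genes had groups without overlap, where 53% of all genes tested did.

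Cell type markers moved in the same comparison, in which 23.6% of all genes tested were called higher and 23% lower. Of the 4 RGC markers tested 3 fell and 0 rose, namely Nefl (log2 fold change -0.73, edgeR adjusted p = 3.35e-10), Isl1 (-0.66, 3.38e-06) and Rbpms (-0.30, 3.18e-05). Of 7 macrophage markers tested 5 fell and 0 rose, and their summed FPKM over 9 genes was 44.7 to 54.4 in normal RGCs and 35.8 to 39.6 in aging RGCs. Of 8 mesenchymal markers tested 5 fell and 1 rose, while their summed FPKM was 1023 to 1056 in normal RGCs and 1087 to 1128 in aging RGCs. That sum followed Vim, the 1 marker that rose, from a mean of 797 to 930 FPKM, whereas Fn1 (129 to 82.9 FPKM) and Col3a1 (96.7 to 81.7 FPKM) were among those that fell. Of 4 epithelial markers tested 1 rose and 2 fell. The part of these cells in the HOX differences was not tested.

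**Figure D2:**
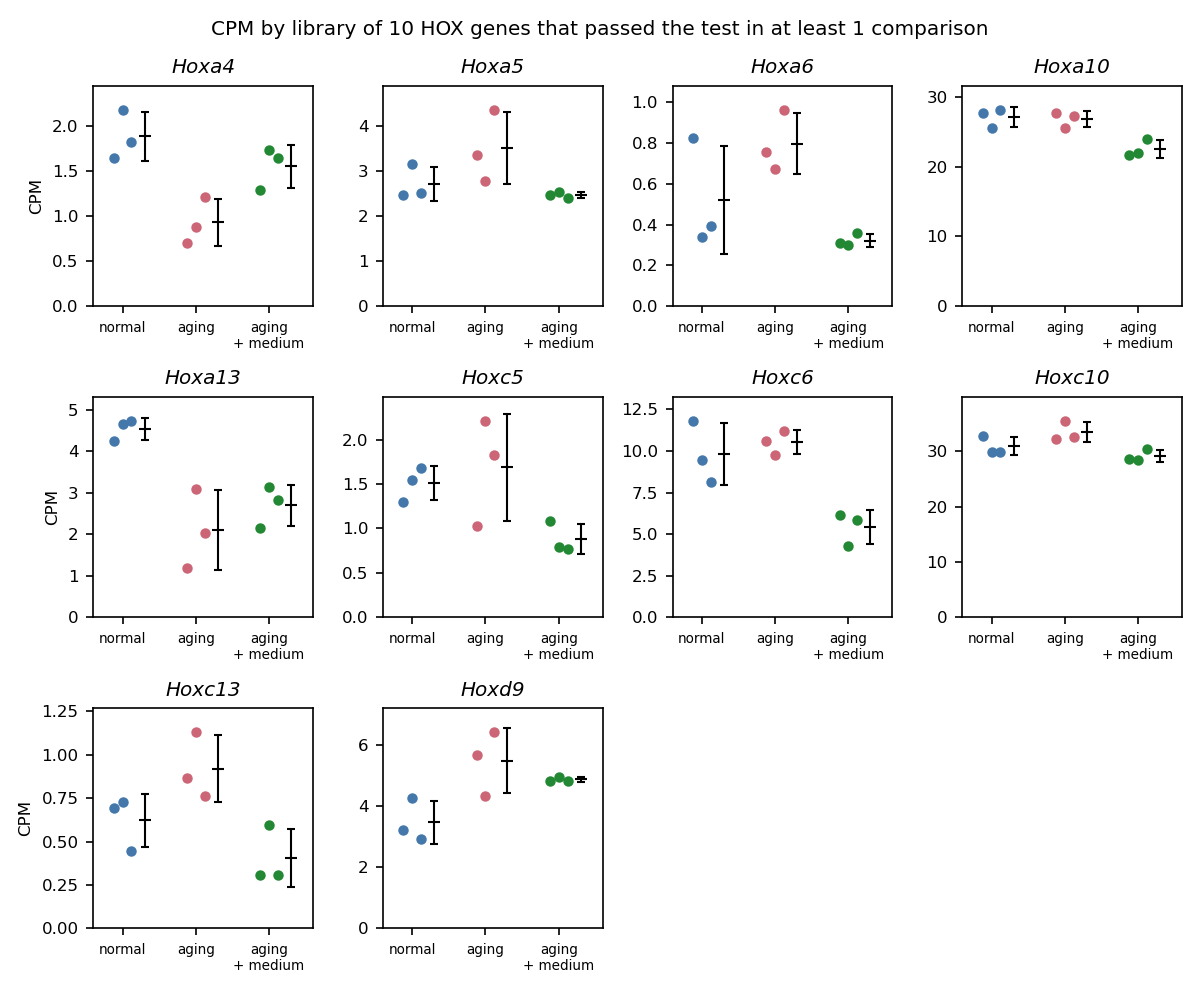
CPM in each library for 10 HOX genes called in at least 1 comparison, with 1 point per library and, beside the points, the mean and SD of 3 libraries. Hoxc6 sits between 4.27 and 6.16 CPM in the medium libraries, below all 6 others, and Hoxa13 is highest in the 3 normal libraries.

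The comparison of the medium group with aging RGCs asks what the conditioned medium changed. USCs were grown in a special medium of their own, and no sequenced group received that medium without conditioning by USCs. Substances released by USCs and the medium itself therefore cannot be told apart. Of the 22 HOX genes tested, Hoxa5, Hoxa6, Hoxa10, Hoxc5, Hoxc6, Hoxc10 and Hoxc13 fell, and 8 genes were called in all. These calls are 36.4% of those tested, where 53.1% of all genes were called. The lower calls were 7 of the 22, which is near the 26% of all genes called lower. Of all genes 27.1% were called higher. The median log2 fold change was -0.13 over the HOX genes and -0.01 over all genes tested. Of the 22 HOX genes tested 2 were called with a log2 fold change of 1 or more in size, where 5.44% of all genes tested were. The 7 lower genes were 4 of 8 tested in the Hoxc cluster, 3 of 11 in the Hoxa cluster and 0 of 3 in the Hoxd cluster. The 3 of 11 is near the 26% of all genes called lower.

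Hoxc6, a gene of the thoracic region and of forelimb-level motor neurons, had 10.6, 9.79 and 11.2 CPM in aging RGCs and 6.16, 4.27 and 5.84 CPM with the medium. The groups lay far apart compared with their spread, at means of 10.5 ± 0.705 and 5.42 ± 1.01 CPM (SD, n = 3). The level was 1.94-fold lower, with a log2 fold change of -0.96 (SE 0.146, edgeR adjusted p = 2.98e-06), the smallest p of any HOX gene in the 3 comparisons.

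Hoxa10 had 27.6, 25.6 and 27.2 CPM in aging RGCs and 21.6, 21.98 and 24.0 CPM with the medium, so all medium libraries were lower. Its log2 fold change of -0.25 (SE 0.0716, edgeR adjusted p = 0.00424) was small but precise, at 421 to 538 counts per library of the medium and aging groups. Hoxa10 and Hoxc6 were the 2 genes of this comparison called in every alternative setting.

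Hoxc10 had 32.2, 35.5 and 32.6 CPM in aging RGCs and 28.7, 28.3 and 30.5 CPM with the medium, without overlap. It differed by -0.20 on the log2 scale (edgeR adjusted p = 0.0129). Without aging RGCs replicate 2 the edgeR adjusted p was 0.0934, and without medium replicate 2 it was 0.0564.

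The other lower genes had few counts, and leaving out 1 library could end each call. Hoxa5, a gene of the lung and the neck and thoracic skeleton, had 3.35, 2.78 and 4.35 CPM in aging RGCs and 2.47, 2.53 and 2.41 CPM with the medium. The groups were close without overlap, and the log2 fold change of -0.50 passed narrowly (edgeR adjusted p = 0.0489). It was lost on leaving out any of 7 of the 9 libraries, with edgeR adjusted p of 0.0531 and 0.0549 without normal RGCs replicates 1 and 3, 0.0695 and 0.296 without aging RGCs replicates 1 and 3, and 0.0914, 0.0835 and 0.101 without the medium replicates 1, 2 and 3.

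Hoxa6, a gene of the thoracic region, had 0.757, 0.670 and 0.962 CPM in aging RGCs and 0.308, 0.298 and 0.359 CPM with the medium. The medium libraries held 19 counts together and the aging libraries 46, without overlap. The log2 fold change was -1.29 (SE 0.478, edgeR adjusted p = 0.024), and the adjusted p was 0.0978 without aging RGCs replicate 3, and 0.0653 and 0.07 without medium replicates 1 and 2. Without the low-count filter it was 0.0556.

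Hoxc5, a gene of the neck and upper trunk, had 1.03, 2.21 and 1.82 CPM in aging RGCs and 1.08, 0.794 and 0.768 CPM with the medium. It was the 1 called gene whose groups overlapped, since aging RGCs replicate 1 lay below medium replicate 1. The log2 fold change was -0.94 (edgeR adjusted p = 0.018), and it was lost without aging RGCs replicate 2 (0.129) or 3 (0.0577) and without medium replicate 2 (0.0619) or 3 (0.0622). Hoxc5 shares 5.37% of its exon bases with Hoxc10 on the same strand.

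Hoxc13, a gene of hair and nails, had 0.865, 1.13 and 0.760 CPM in aging RGCs and 0.308, 0.596 and 0.307 CPM with the medium, from 53 and 24 counts. The groups did not overlap. The log2 fold change was -1.17 (edgeR adjusted p = 0.0253), and it was lost without aging RGCs replicate 2 (0.113) and without medium replicate 1 (0.0973) or 3 (0.0947). Without the low-count filter its adjusted p was 0.0518.

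Among members that did not pass, Hoxa4 had 0.703, 0.876 and 1.22 CPM in aging RGCs against 1.28, 1.74 and 1.64 CPM with the medium. The groups did not overlap, and the log2 fold change of 0.73 had an edgeR adjusted p of 0.0501, which became 0.0299 without aging RGCs replicate 3 and 0.0422 without medium replicate 1. Hoxa13 had a log2 fold change of 0.36 (edgeR adjusted p = 0.244), which became a call without aging RGCs replicate 2 (0.0254). Hoxd9 had -0.17 (edgeR adjusted p = 0.421), and Hoxa11 differed by -0.00 with a 95% interval of -0.15 to 0.15 on the log2 scale. Groups did not overlap for 8 of 22 HOX genes, where 59.8% of all genes tested had no overlap.

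By position, 4 of 10 tested genes at positions 4 to 8 and 3 of 9 at positions 9 to 13 fell. Of all genes tested 26% were called lower, which the 3 of 9 is near. All 4 tested genes at positions 5 and 6, Hoxa5, Hoxa6, Hoxc5 and Hoxc6, were among those that fell, a grouping chosen after the values were seen and given without a test. Summed over the clusters, Hoxc FPKM was 30.1 to 32.2 in aging RGCs and 21.98 to 24.5 with the medium, without overlap. Most of this difference came from Hoxc6 (mean 6.74 to 3.29 FPKM) and Hoxc10 (mean 17.74 to 14.65 FPKM). Hoxa FPKM was 57.4 to 63.8 and 54.7 to 59.1, and Hoxd FPKM 10.5 to 11.2 and 8.56 to 11.5, both with overlap. Over all 39 genes the sum was 98.5 to 105 FPKM in aging RGCs and 86.7 to 92.2 with the medium. These sums carry no TMM factor. Without TMM factors the median log2 fold change of all genes was -0.085 in this comparison, beside -0.01 with them. The part of this shift in the sums was not tested.

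Markers moved here as well, where 27.1% of all genes tested were called higher and 26% lower. Of 7 macrophage markers tested 2 rose and 1 fell with the medium, but both rises, of Adgre1 and C1qb, rested on medium replicate 3, without which 0 rose and 3 fell. Their summed FPKM was 35.8 to 39.6 in aging RGCs and 23.6 to 39.8 with the medium. Without medium replicate 3, 4 HOX genes in place of 7 were called lower, namely Hoxa6, Hoxa10, Hoxc6 and Hoxc10, and 48.9% of all genes were called. Of the 4 RGC markers tested 1 fell, Nefl (log2 fold change -1.155, edgeR adjusted p = 3.99e-13), and 0 rose. Of 8 mesenchymal markers 4 fell and 0 rose, and their summed FPKM, mostly Vim, was 1087 to 1128 in aging RGCs and 963 to 1006 with the medium. The summed FPKM of markers carries no TMM factor either. Of 4 epithelial markers tested 2 rose and 0 fell. The part of these cells in the HOX differences was not tested.

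**Figure D3:**
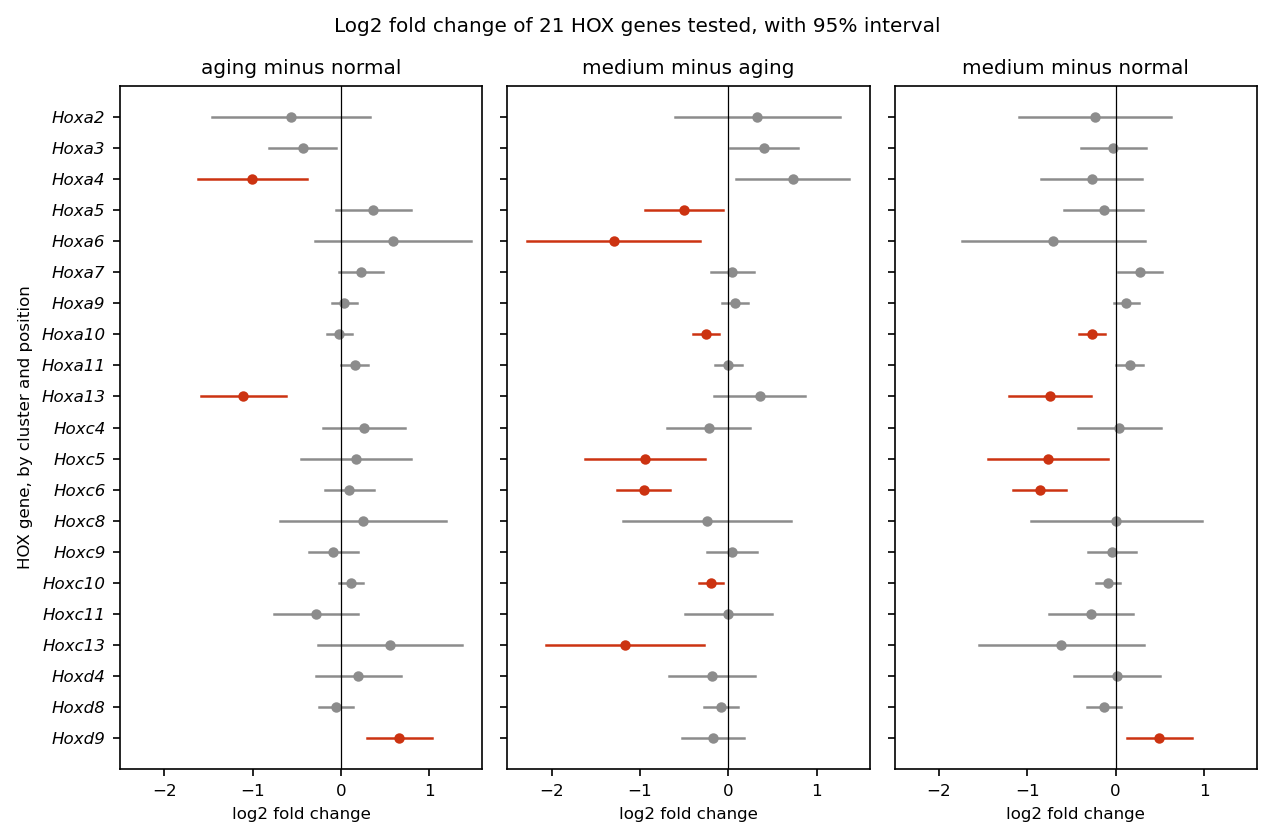
Log2 fold change and 95% interval of 21 HOX genes tested in each of the 3 comparisons, ordered by cluster and position, with genes past an adjusted p of 0.05 in red. Hoxa9 and Hoxa11 have narrow intervals, and Hoxa2, Hoxa6, Hoxc8 and Hoxc13 with few counts have the 4 widest in each comparison.

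The medium group was also compared with normal RGCs, to see where both treatments together left the genes. The comparison shares libraries with each of the other two. Hoxd9 was higher and Hoxa10, Hoxa13, Hoxc5 and Hoxc6 were lower than in normal RGCs, and 6 genes were called in all. The 6 calls are 27.3% of the HOX genes tested, beside 60.5% of all genes, of which 30.6% were higher and 29.9% lower. Of the 22 HOX genes tested 0 were called with a log2 fold change of 1 or more in size, where 6.72% of all genes tested were. The median log2 fold change was -0.11 over the HOX genes and -0.01 over all genes, and 7 of 22 HOX genes had groups without overlap, beside 63.8% of all genes.

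Hoxc6 had 11.8, 9.45 and 8.14 CPM in normal RGCs against 6.16, 4.27 and 5.84 CPM with the medium, and the log2 fold change was -0.86 (SE 0.146, edgeR adjusted p = 9.86e-06). Hoxa13 had 4.24, 4.65 and 4.74 CPM against 2.16, 3.13 and 2.82 CPM, with a log2 fold change of -0.75 (edgeR adjusted p = 0.00543). Neither gene's groups overlapped. Hoxa10 had 27.7, 25.5 and 28.2 CPM against 21.6, 21.98 and 24.0 CPM (log2 fold change -0.27, edgeR adjusted p = 0.00176). These 3 genes were separated by group and were called in every alternative setting.

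Hoxd9 and Hoxc5 were less firm. Hoxd9 had 3.21, 4.26 and 2.91 CPM in normal RGCs and 4.83, 4.96 and 4.81 CPM with the medium, without overlap (log2 fold change 0.49, edgeR adjusted p = 0.0192). It was lost without normal RGCs replicate 1 (0.0701) or 3 (0.0968). Hoxc5 had 1.30, 1.55 and 1.68 CPM against 1.08, 0.794 and 0.768 CPM, without overlap (log2 fold change -0.77, edgeR adjusted p = 0.0466). It was lost without normal RGCs replicate 2 (0.0879) or 3 (0.125), aging RGCs replicate 3 (0.0556), or medium replicate 2 (0.122) or 3 (0.125).

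Hoxa4 had 1.65, 2.18 and 1.83 CPM in normal RGCs and 1.28, 1.74 and 1.64 CPM with the medium. The groups overlapped, and the log2 fold change was -0.27 (edgeR adjusted p = 0.406). The levels in the 3 groups are given side by side because the comparisons share libraries. Hoxa4 averaged 1.88 ± 0.272, 0.931 ± 0.261 and 1.55 ± 0.238 CPM (SD, n = 3 each) in the normal, aging and medium groups, and Hoxd9 averaged 3.46 ± 0.712, 5.48 ± 1.07 and 4.87 ± 0.0816 CPM. In this comparison 5 of 7 macrophage markers, 4 of 8 mesenchymal markers and 3 of 4 RGC markers tested were lower. Of the mesenchymal markers 1 was higher. Of all genes tested 29.9% were called lower and 30.6% higher. The part of these markers in the HOX differences was not tested. Without medium replicate 3 all 7 of the macrophage markers tested were lower, and 5 HOX genes in place of 6 were called. These 5 are 21.7% of the HOX genes tested in that fit, where 56.5% of all genes were called.

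The remaining 11 tested genes passed in no comparison. They were Hoxa2, Hoxa3, Hoxa7, Hoxa9, Hoxa11, Hoxc4, Hoxc8, Hoxc9, Hoxc11, Hoxd4 and Hoxd8. Leaving out 1 library brought 4 of them under the threshold. In aging against normal RGCs these were Hoxa7 without normal RGCs replicate 3 (edgeR adjusted p = 0.0355), Hoxa11 without aging RGCs replicate 1 (0.0499) and Hoxa3 as given above. In medium against aging RGCs Hoxa3 passed without aging RGCs replicate 3 (0.0275) or medium replicate 3 (0.0339). Against normal RGCs Hoxa7 passed without normal RGCs replicate 3 (0.0117), aging RGCs replicate 2 (0.0483) or medium replicate 2 (0.0495), Hoxa11 without normal RGCs replicate 1 (0.0437) or 3 (0.037), and Hoxa9 without medium replicate 1 (0.0432). With all libraries kept, Hoxa3 was called lower in aging RGCs with the edgeR likelihood ratio test (adjusted p = 0.041) and without TMM factors (0.0465). Limma on log2(FPKM + 1) called Hoxa3 as well. In medium against normal RGCs Hoxa7 was called higher with the likelihood ratio test (0.0457) and without the low-count filter (0.039). Among the high genes of this set the spread was small, and Hoxd8 had 13.2 to 16.0 CPM in the normal, 13.7 to 14.3 in the aging and 12.3 to 14.2 in the medium group. Hoxa2 and Hoxc8 had 5 to 20 counts per library, and their log2 fold changes had SEs of 0.418 to 0.470, so small changes were not detectable at this depth. Exons of Hoxa11 overlap antisense exons over 35% of their length, those of Hoxa3 over 25.4% and those of Hoxa7 over 20.4%. The non-coding transcripts of the clusters, such as Hotair and Hottip, are not analysed here.

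HOX proteins bind DNA with PBX and MEIS partners, and 8 of 9 cofactor genes were tested. In aging against normal RGCs 2 rose and 1 fell, with the medium 0 rose and 2 fell, and against normal RGCs the medium group had 1 higher and 2 lower. The shares called were 37.5%, 25% and 37.5%, where 46.5%, 53.1% and 60.5% of all genes tested were called. Without medium replicate 3 the medium had 1 higher and 4 lower against either group. These are 62.5% of the cofactors tested, where 48.9% of all genes were called against aging RGCs and 56.5% against normal RGCs. Whether the share lay below or above that of all genes thus depended on this library.

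Polycomb and Trithorax proteins keep HOX genes off or on, and 21 of 22 regulators were tested. Of these 6 rose and 4 fell in aging RGCs, 4 rose and 7 fell with the medium against aging RGCs, and 6 were higher and 9 lower with the medium against normal RGCs. These are 47.6%, 52.4% and 71.4% of the regulators tested, where 46.5%, 53.1% and 60.5% of all genes were called, so the first 2 shares are near that of all genes. Kdm6b, which removes the repressive H3K27 methyl mark, had 23.49 to 25.39 FPKM in the normal group, 14.14 to 16.11 in the aging group and 12.93 to 13.85 with the medium. It fell in aging RGCs with a log2 fold change of -0.65 (edgeR adjusted p = 1.72e-12), and antisense exons cover 4.11% of its exon bases. Phf19, an accessory protein of the Polycomb repressive complex that sets this mark, rose from 4.07 to 4.46 FPKM in normal RGCs to 6.82 to 8.05 in aging RGCs, with a log2 fold change of 0.75 (edgeR adjusted p = 2.12e-09). Its relative Phf1 fell with the medium from 6.8 to 7.46 FPKM to 3.74 to 4.53, at -0.73 on the log2 scale (edgeR adjusted p = 1.62e-07), and shares 39.3% of its exon bases with genes on the other strand.

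Retinoic acid and other inputs that start HOX expression in the embryo were mostly too low to test, at 10 of 23 genes tested. In each of the 3 comparisons 0 rose, while 4, 3 and 6 fell in aging against normal RGCs, medium against aging RGCs and medium against normal RGCs. Of all genes tested 23%, 26% and 29.9% were called lower, which the 3 of 10 in medium against aging RGCs is near. Rarg, a retinoic acid receptor, had 21.6 to 25.05 FPKM in the normal group, 14.54 to 16.99 in the aging group and 14.48 to 16.19 with the medium. It fell in aging RGCs at -0.52 on the log2 scale (edgeR adjusted p = 1.29e-08) and differed by 0.02 between medium and aging RGCs (edgeR adjusted p = 0.789). Egr2, a hindbrain factor that is also induced by serum and stress, was lower in aging RGCs (log2 fold change -0.67, edgeR adjusted p = 0.00563) and lower again with the medium (-0.61, edgeR adjusted p = 0.0223). The first call was lost without aging RGCs replicate 3 (0.0595). The second was lost without aging RGCs replicate 1 (0.062) or 2 (0.145) and without medium replicate 1 (0.13), and with limma on log2(FPKM + 1) it had an adjusted p of 0.776, as FPKM overlapped at 0.92 to 1.32 in aging RGCs and 0.79 to 1.32 with the medium. Cdx2, an activator of posterior HOX genes, had 1.83 to 2.12 FPKM in normal RGCs and 0.94 to 1.24 with the medium, at -0.73 on the log2 scale (edgeR adjusted p = 0.00117).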

How the data were processed

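RNA was enriched by oligo(dT), and expected counts, which estimate reads per gene and are not normalized, were deposited together with FPKM, scaled by the authors for transcript length and library size. The submitters' processing notes name the mm10 build. No source used here gives the aligner, the counting program or its strand setting. Counts were rounded, since 6.92% to 7.38% of a library's values were fractional. Groups came from the labels.

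edgeR 4.0.16 in R 4.3.3 was fitted to all 9 libraries with 1 mean per group, filterByExpr and TMM factors of 0.956 to 1.03. The quasi-likelihood F test of each contrast had 6 residual degrees of freedom, with Benjamini-Hochberg adjustment over 12145 genes, which left 45.6% untested. Intervals are at 95%. The fit was tested on simulated data. Coordinates and exon overlaps are from GENCODE M21 on GRCm38, and upstream sequences from RefSeq on GRCm38.p6. HOX genes were otherwise named in full where called in at least 1 comparison, and genes of other lists where called with a log2 fold change of 0.5 or more in size or where a sentence needed them. Members, lists and tests were chosen with earlier results of these data known. Some genes are counted but not reported by name here.

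Alternatives were DESeq2 1.42.0, the edgeR likelihood ratio test, no TMM, upper-quartile factors, other filters, only the groups compared, the replicate block, a fold-change threshold, limma 3.58.1 on log2(FPKM + 1) and log2(FPKM + 0.1), and fits without 1 library.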

Additional observations from a re-analysis of the deposited data

How the results depend on the processing

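No HOX gene that was called reversed its sign in any alternative. Of the 17 calls in the 3 comparisons 9 were kept in every alternative that changed the test, the scaling, the filter or the libraries, namely 3 in aging against normal RGCs, 2 in medium against aging RGCs and 4 in medium against normal RGCs. Requiring also a log2 fold change of 1 or more in size left 0 higher and 2 lower genes in aging RGCs, 0 higher and 2 lower with the medium against aging RGCs, and 0 higher and 0 lower against normal RGCs. In all genes this rule called 2.65%, 5.44% and 6.72%. In medium against aging RGCs 2 HOX genes were higher in place of 1 with the likelihood ratio test, a filter of 1 CPM in 3 libraries and limma on log2(FPKM + 1), with and without the low-value filter, and on log2(FPKM + 0.1), and Hoxa4 was gained in each of these. With limma without the filter Hoxd10, which is below the low-count filter, was also higher. In medium against normal RGCs 1 was higher in place of 2 with no TMM factors and with limma on log2(FPKM + 1) or log2(FPKM + 0.1), and Hoxd9 was the gene lost, with adjusted p of 0.0595, 0.0758 and 0.0729, and 0.13 with limma without the low-value filter. Hoxc10 was gained among the lower genes there with no TMM factors and with limma, and Hoxd8 with no TMM factors. Hoxa5 was lost with DESeq2 (0.0787) in medium against aging RGCs, and Hoxc5 with DESeq2 (0.066) and limma without a filter (0.0534) in medium against normal RGCs. Without TMM factors the median of all genes moved to -0.11 in that comparison. Leaving out each library in turn gave 1 to 2 higher and 2 to 3 lower genes in aging against normal RGCs, 1 to 3 higher and 3 to 7 lower in medium against aging RGCs, and 2 to 3 higher and 3 to 5 lower in medium against normal RGCs. Where this left an arm with 2 libraries, the spread was still pooled over all groups.

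Same-numbered libraries did not deviate together (correlations of -0.033 to 0.0471). The labels and methods state no pairing by number, and these correlations cannot exclude one. With the replicate number as a block there were 1 higher and 2 lower, 1 higher and 6 lower, and 3 higher and 3 lower HOX genes in the 3 comparisons, where Hoxa5, then Hoxc5, were lost and Hoxa7 was gained. By level, 23 genes in place of 17 were expressed at 0.1 FPKM, and also 23 at more than 3 counts in every library of a group. Depth limits the genes under 1 CPM, 4 of the 22 tested. Hoxa6 and Hoxc13 were not tested under the filter of 1 CPM.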

Other observations

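The factors that specify the eye field and anterior brain are the counterpart of the HOX code, and 9 of the 14 on the list were at 0 in all 9 libraries. Summed FPKM over all 14 was 34.3 to 36.2 for normal, 36.5 to 37.2 for aging and 25.6 to 25.9 for medium libraries. Most of it came from 1 gene not reported by name here. Of 4 genes tested, 2 were called higher and 1 lower after D-galactose. With the medium 0 were higher, while 2 were lower against aging and 3 against normal cells. The shares called were 75%, 50% and 75%, where 46.5%, 53.1% and 60.5% of all genes were called. Pax6, needed for eye formation, had 3.74 to 4.74 FPKM over all libraries and passed in no comparison.

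Sox2, a factor of neural progenitors, had 2.55 to 3.07 FPKM in the normal group, 3.58 to 4.76 in the aging group and 1.48 to 2.71 with the medium. It rose in aging RGCs (log2 fold change 0.52, edgeR adjusted p = 0.00938, and 0.0752 without aging RGCs replicate 1, with limma on FPKM 0.0503 to 0.102) and was lower with the medium than in aging RGCs (-0.95, edgeR adjusted p = 3.08e-05). Otx1, a forebrain and midbrain factor, fell in aging RGCs from 1.81 to 2.14 FPKM to 0.82 to 1.23, at -0.92 on the log2 scale (edgeR adjusted p = 0.000235).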
